A study of Dreissena polymorpha with 11 samples.

Results

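Gill was compared with digestive gland in Dreissena polymorpha, the zebra mussel, a bivalve of fresh water, using 4 of the 11 arrays of the series. Gill and digestive gland had 2 arrays each, chosen by their sample titles, and all came from adult-tissue samples of animals that had received no treatment. Each array was hybridised with Cy3-labelled material made from 500 ng of total RNA. The gender label gives replicate 1 of both tissues as female and replicate 2 as male, whereas the source label calls all 4 samples female. Neither age, nor genotype, nor the number of animals behind a sample is stated, and no label says that the arrays came from separate animals. The p-values thus rest on the variation among these arrays alone, and that variation could be technical. The arrays of the other tissues (2 of male gonad, 1 of female gonad and 2 of half-body samples) entered the fit only as a further measure of spread. Larvae at 24 h were left out of it.

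The gill of a bivalve is a sheet of ciliated epithelium that drives water through the mantle cavity, takes up oxygen and sorts food particles. The digestive gland is a mass of blind tubules in which food is broken down inside and outside the cells, nutrients are stored and foreign compounds are metabolised. The RNA of each tissue is a mixture from several cell types, and fewer cells of a type cannot be told apart here from less RNA per cell. The question posed by the design is which sequences differ between tissues of untreated animals.

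The array carries 13654 probes made for 3541 sequences. The files name the sequences by public identifiers and give no gene for them, apart from the symbol RXR, the retinoid X receptor, for 6 probes. A search of the 51549 genes annotated by RefSeq on UMN_Dpol_1.0 returned 0 of the 3541 names, so neither tissue could be checked against marker genes. Results are therefore given by sequence and by identifier series: EY (2864 sequences), AM (437), AJ (135) and other prefixes (104). Whether different identifiers stand for the same transcript is not given in the files.

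A level is the log2 of a probe's processed signal minus the 75th percentile of its own array, taken over 3234 probes detected on all 9 adult arrays, so that 0 is a bright probe and about -12 is background. Detected means that Feature Extraction marked the probe as well above background. A difference is the mean level in gill minus that in digestive gland, in log2 units, n = 2 and 2. On the 4 arrays, 4357, 4453, 4679 and 5318 probes were detected in gill 1, gill 2, digestive gland 1 and digestive gland 2. No spot was saturated. The number of arrays limits the precision. The arrays lay on 3 slides: digestive gland 1 on slide 1, gill 2 and digestive gland 2 on slide 2, and gill 1 alone on slide 3.

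AM sequences stood apart from all others. In digestive gland 2, 79.3% of the 1389 AM probes were detected, against 65.7% in digestive gland 1, 31.6% in gill 2 and 25.5% in gill 1. Of the probes with other identifiers, 34.4%, 30.7%, 32.7% and 32.6% were detected on the same arrays. Across the AM probes tested, digestive gland 1 and 2 had Pearson r = 0.565, and gill 1 and 2 had r = 0.94. Without AM the values were 0.959 for digestive gland and 0.953 for gill, and the 4 correlations between a gill and a digestive gland array lay between 0.885 and 0.901. These correlations run over probes of 1 array design, which are not independent. The main counts below are given with and without AM.

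A minority of sequences differed between gill and digestive gland by more than the arrays' spread. Of 4760 probes detected on both arrays of at least 1 of the tissues, 174 (3.66%) were called at an adjusted p below 0.05 in limma with Benjamini-Hochberg adjustment. Of these, 84 (1.76%) were higher in gill and 90 (1.89%) were lower in gill. They belonged to 92 of 1989 sequences tested, 62 higher and 30 lower, and no sequence had probes called in both directions. At an unadjusted p below 0.05 (limma) there were 701 probes, 607 of them without AM. Chance alone would give 238 if the filter played no part. The filter admits probes detected in 1 tissue alone, which favours a difference, so 238 is only a rough guide. The arrays of the tissues did not overlap for 2602 probes (54.7%), and without AM for 1980 (50.8%). With 2 arrays per tissue many probes separate by chance, so these shares are a description and no support.

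Without AM, 138 of 3897 probes passed, with 79 higher and 59 lower in gill, from 60 and 22 sequences. When AM identifiers were left out of the scaling, the filter and the fit as well, 183 probes (4.70%) were called, 114 higher and 69 lower, and these held all 138 calls. The balance of directions depended on the scaling and on other settings. The higher calls made up 48.3% of all calls as reported, 27.3% (27 higher, 72 lower) with the percentile taken over all probes and 20.2% (22 higher, 87 lower) with the median of the common probes. The median difference over all probes tested was 0.28 as reported, and 0.49 and -0.02 under those 2 scalings. Higher calls thus became fewer whether that median rose or fell. With quantile normalization the share was 45.2% (66 higher, 80 lower). With slide as a fixed block, 20 probes were higher and 60 lower. With the scaling unchanged and only the 4 arrays in the fit, 7 were higher and 70 lower. At an adjusted p below 0.01 the counts were 10 and 60 (limma). Within slide 2, where both tissues have 1 array, all 174 called probes had the same sign, though those arrays also helped to make the calls.

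**Figure D1:**
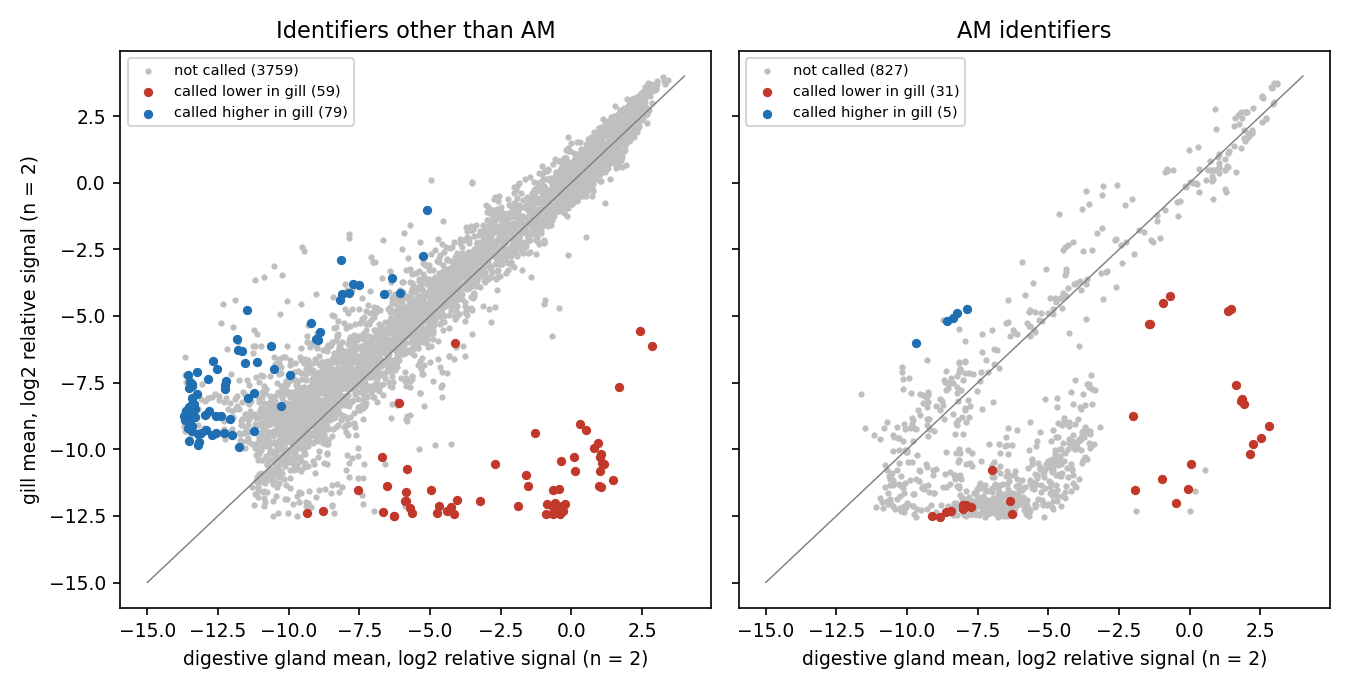
Mean level in gill (vertical axis) against mean level in digestive gland (horizontal axis), both in log2 relative signal with n = 2, for probes with identifiers other than AM (left) and AM probes (right); 1 point is 1 probe and the line marks equal levels. Called probes that were lower in gill reach the bright end of the digestive gland axis, whereas called probes that were higher in gill lie mostly at background on the digestive gland axis, and uncalled AM probes form a cloud near background in gill.

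Sequences lower in gill were bright in digestive gland and at background in gill. Among identifiers other than AM, the 59 probes called lower had a median difference of -9.34 (-12.64 to -1.88), and 26 of them differed by more than 10. Of the 59, 44 were not detected on either gill array, so their difference has only a lower bound. With those probes set at their bound the median was -8.68. The median level of the 59 was -1.05 and -1.15 in digestive gland 1 and 2 and -12.02 and -11.89 in gill 1 and 2.

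The naming rule takes only sequences with at least 2 tested probes, all of 1 sign, and a leading probe whose arrays do not overlap between tissues. Both traits are therefore fixed by the choice in every named sequence and are no further support. The leading probe is the called probe with the largest absolute difference, or the tested probe with the largest where none was called. The sequence with the largest difference by this rule was EY433672. Its leading probe had levels of -10.90 and -11.44 in gill 1 and 2 and of 1.83 and 1.12 in digestive gland 1 and 2. The processed signals behind these levels were 18.4 and 6.1 in gill and 88260 and 92936 in digestive gland. Both gill arrays were at background and both digestive gland arrays were among the bright values, with no overlap. The difference was -12.64 ± 0.62 (SE, adjusted p = 0.000517, limma), which is at least 3334-fold lower in gill. A second probe of EY433672 had levels of -10.50 and -9.84 in gill and 1.31 and 0.75 in digestive gland, and was called as well (-11.21, adjusted p = 0.000873, limma). The remaining 2 probes of EY433672 were below -9 on all 4 arrays, were each detected on at most 1 array of a tissue and were not tested, so the 4 probes of this sequence did not give 1 pattern.

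For AJ517593, all 4 probes were tested and all 4 were called. The leading probe had levels of -10.83 and -11.97 in gill and 1.21 and 0.89 in digestive gland. The 4 probes kept the same order of tissues on every array, with differences from -12.45 to -10.37. The leading probe's difference was -12.45 ± 0.64 (SE, adjusted p = 0.000625, limma), at least 2493-fold lower in gill. The SD was 0.80 between the gill arrays and 0.23 between the digestive gland arrays, and the tissues did not overlap, as the naming rule requires.

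The sequence ranked next had a probe with 25 spots. All 5 of its probes were called and none was detected on either gill array. Its probe with 25 spots was detected in 25 of 25 spots on each digestive gland array and in 2 of 25 on each gill array. The mean of that probe was -0.22 and -1.05 in digestive gland 1 and 2, with a spread between spots of 0.059 and 0.063 (SD), and -12.09 and -12.25 in gill 1 and 2. Its difference was -11.54 (adjusted p = 0.000502, limma), far beyond the spread between spots. Such a spread is technical within 1 array and says nothing of animals.

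For the 8 highest-ranked sequences with identifiers other than AM and lower levels in gill, the leading probes had differences from -12.64 to -11.16. Their adjusted p lay between 0.000364 and 0.00126 (limma). All 28 tested probes of these 8 sequences were called. On the digestive gland arrays the leading probes lay between -1.15 and 1.83, and on the gill arrays between -12.54 and -10.33. None of the 8 leading probes was detected in gill, and the bounds ran from at least 639-fold to at least 3334-fold lower.

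**Figure D2:**
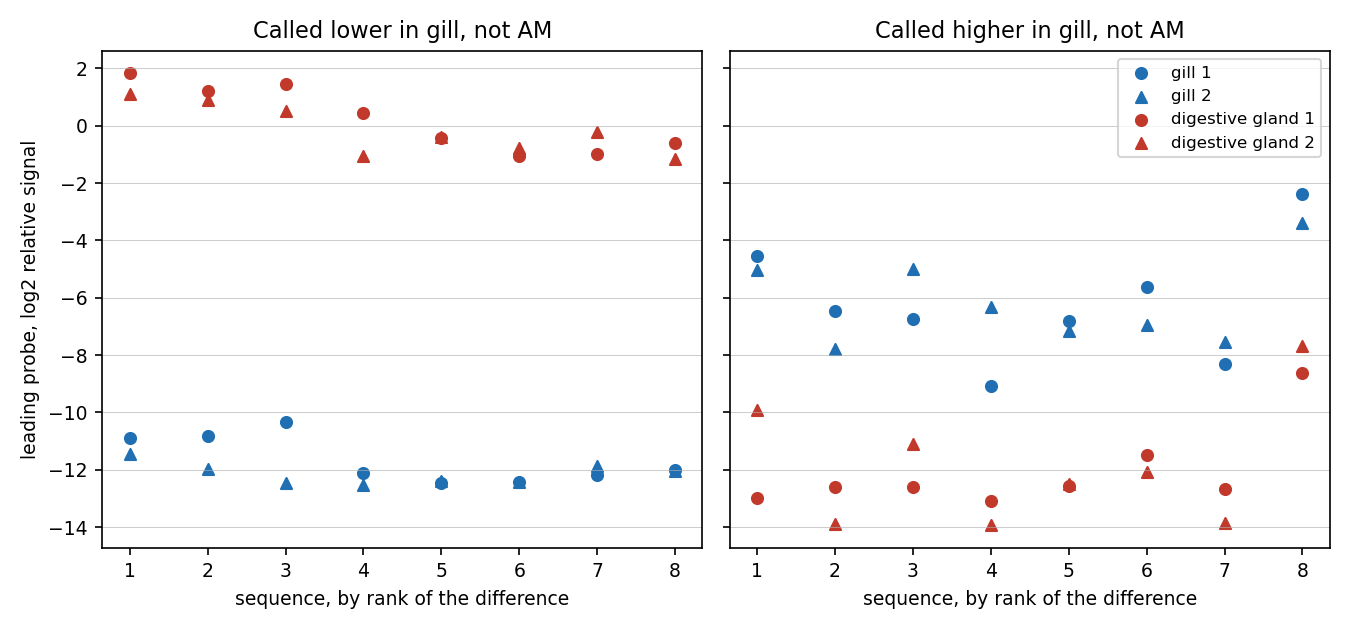
Level of the leading probe (vertical axis, log2 relative signal) on each of the 4 arrays for the 8 highest-ranked sequences called lower in gill (left) and the 8 called higher in gill (right), AM left out; the horizontal axis is the rank of the difference and 1 symbol is 1 array. On the left, gill lies between -12.54 and -10.33 and digestive gland between -1.15 and 1.83; on the right, the tissues are closer and the arrays of 1 tissue spread by up to 3.07.

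Probes of the same sequence mostly gave the same direction. All 22 sequences lower in gill without AM had at least 2 probes tested, 18 had at least 2 called, and in 21 all tested probes had the same sign. Of the 90 probes called lower, 51 from 20 sequences were still called whichever of the 4 arrays was left out, and without AM 39 from 16 sequences.

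The same probes were detected in the other adult tissues. The 59 probes lower in gill were detected in both male gonad arrays and the female gonad array, 59 of 59 each, and in 57 and 58 of 59 on the half-body arrays. Their median levels were -2.58 and -2.55 in male gonad, -3.03 in female gonad, and -2.56 and -3.32 in the half-body samples. Each of these medians lay well above the gill medians and a little below the digestive gland medians. On all arrays of male gonad, the level exceeded both gill arrays for 59 of 59 probes, on the female gonad array for 58 and on both half-body arrays for 57. The same counts over all 3897 probes tested without AM were 586, 1011 and 593. In the male gonad, the female gonad and the half-body samples, 59, 57 and 55 of the 59 probes were nearer to digestive gland than to gill, that is 100%, 96.6% and 93.2%. Over all 3897 probes tested without AM the shares were 76.4%, 67.5% and 73.1%. Larvae replicate 1 had only 106 detected probes and was not used; on larvae replicate 2, 44 of the 59 were nearer to digestive gland (75.9%, against 43.3% of all probes tested without AM). The calls were chosen for a difference between gill and digestive gland, and no test was run on the other tissues.

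**Figure D3:**
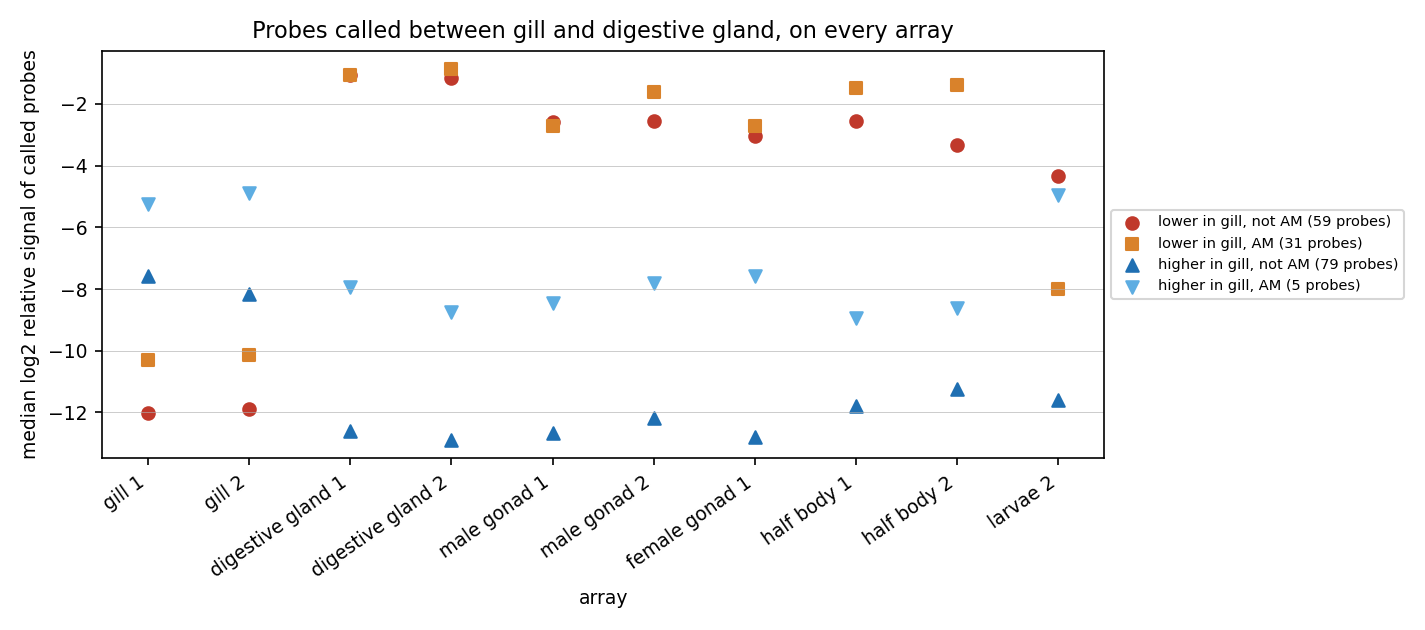
Median level (vertical axis, log2 relative signal) of the probes called between gill and digestive gland on each adult array and on 1 larvae array (horizontal axis), by direction and with AM apart; 1 symbol is the median of 1 set of probes on 1 array. Without AM, probes lower in gill are near -12 on the gill arrays and between -4.34 and -1.05 elsewhere. Probes higher in gill without AM lie near -8 in gill and below -11 elsewhere. The 5 AM probes higher in gill have medians of -5.25 and -4.90 in gill 1 and 2 and -4.96 in larvae. In digestive gland 1 and 2 their medians are -7.94 and -8.74.

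Sequences higher in gill differed less, and most were at background in digestive gland. Brightness here is a property of the probe and of the sample together and does not rank transcripts by abundance. The 79 probes called higher without AM had a median difference of 4.37 (1.82 to 6.66), and none exceeded 10. Their median level was -7.57 and -8.17 in gill 1 and 2, against -1.05 and -1.15 in digestive gland for the probes lower in gill. Of the 79, 54 were not detected on either digestive gland array. With those probes at their bound the median was 3.06. Since a probe was tested if it was detected in 1 tissue alone, a probe that was dark in the other tissue had to differ in that direction, in both tissues alike. When the test was limited to the 3527 probes detected on all 4 arrays, AM included, it called 9 as higher and 14 as lower in gill. Of these 23 calls, 10 had identifiers other than AM.

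By the naming rule, EY436456 had the largest difference. Its leading probe had levels of -4.55 and -5.04 in gill 1 and 2 and of -12.99 and -9.92 in digestive gland 1 and 2. The gill arrays lay above both digestive gland arrays, but the digestive gland arrays were about 3 log2 units apart, and the probe was detected in digestive gland 2 and not in digestive gland 1. The difference was 6.66 ± 1.04 (SE, adjusted p = 0.0317, limma). A second tested probe of EY436456 had levels of 0.26 and -0.05 in gill and -5.42 and -4.48 in digestive gland (difference 5.05), and did not pass the test (adjusted p = 0.374, limma). In both tissues its arrays lay closer together than those of the leading probe. The spread in the fit also takes in the male gonad and half-body arrays, so a call depends on those arrays too. Its 3 other probes were not detected on any of the 4 arrays. The call for EY436456 was lost in 10 of 22 alternative fits.

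For EY434591, 4 of 5 probes were tested and all 4 were called. The leading probe had levels of -6.46 and -7.78 in gill and -12.61 and -13.90 in digestive gland, where it was not detected on either array. The 4 probes gave the same order of tissues, as the naming rule requires, with differences from 4.81 to 6.14. The leading probe's difference was 6.14 ± 0.63 (SE, adjusted p = 0.00707, limma), at least 21.0-fold higher in gill. The call was lost in 6 of 22 alternative fits, against 2 of 22 for EY433672 and for AJ517593.

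For the 8 highest-ranked sequences higher in gill without AM, the leading probes had differences from 5.26 to 6.66. Their adjusted p lay between 0.00427 and 0.0418 (limma). Of the 27 tested probes of these sequences, 15 were called. The median over the tested probes of a sequence was 0.50 at rank 8, 1.60 at rank 4 and between 4.35 and 5.94 at the other ranks. For 5 of the 8 the leading probe was not detected in digestive gland, and the bounds ran from at least 12.03-fold to at least 37.1-fold higher. In the sequences called higher without AM, 23 of 60 rested on a single tested probe, 12 had at least 2 probes called, and in 34 of the 37 with several tested probes all had the same sign. Whichever of the 4 arrays was left out, 6 of the 84 probes called higher were still called, from 5 sequences and with none from AM. With 1 array left out, the higher calls numbered 19 without gill 1, 16 without gill 2, 37 without digestive gland 1 and 11 without digestive gland 2. The lower calls numbered 61, 60, 68 and 62 in the same order.

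As with the lower sequences, the other adult tissues lay on the side of digestive gland, but most of these probes were not detected on any given array. Of the 79 probes higher in gill without AM, 21 and 30 were detected on the male gonad arrays. On the female gonad array 23 were detected, and on the half-body arrays 28 and 33. In the male gonad, the female gonad and the half-body samples, 77, 76 and 72 of the 79 probes were nearer to digestive gland than to gill (97.5%, 96.2% and 92.3%). The level was below both gill arrays on every male gonad array for 78 of 79 probes, on the female gonad array for 79, and on both half-body arrays for 72. The same counts over all 3897 probes tested without AM were 1369, 1961 and 1735. Median levels of the 79 in these tissues ran from -12.81 in female gonad to -11.25 on the second half-body array. On larvae replicate 2, 50 of the 79 were nearer to digestive gland (63.3%), 71 lay below both gill arrays and 7 above both. Over all 3897 probes, 43.3% were nearer to digestive gland on that array, 1480 lay below both gill arrays and 1348 above both.

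**Figure D4:**
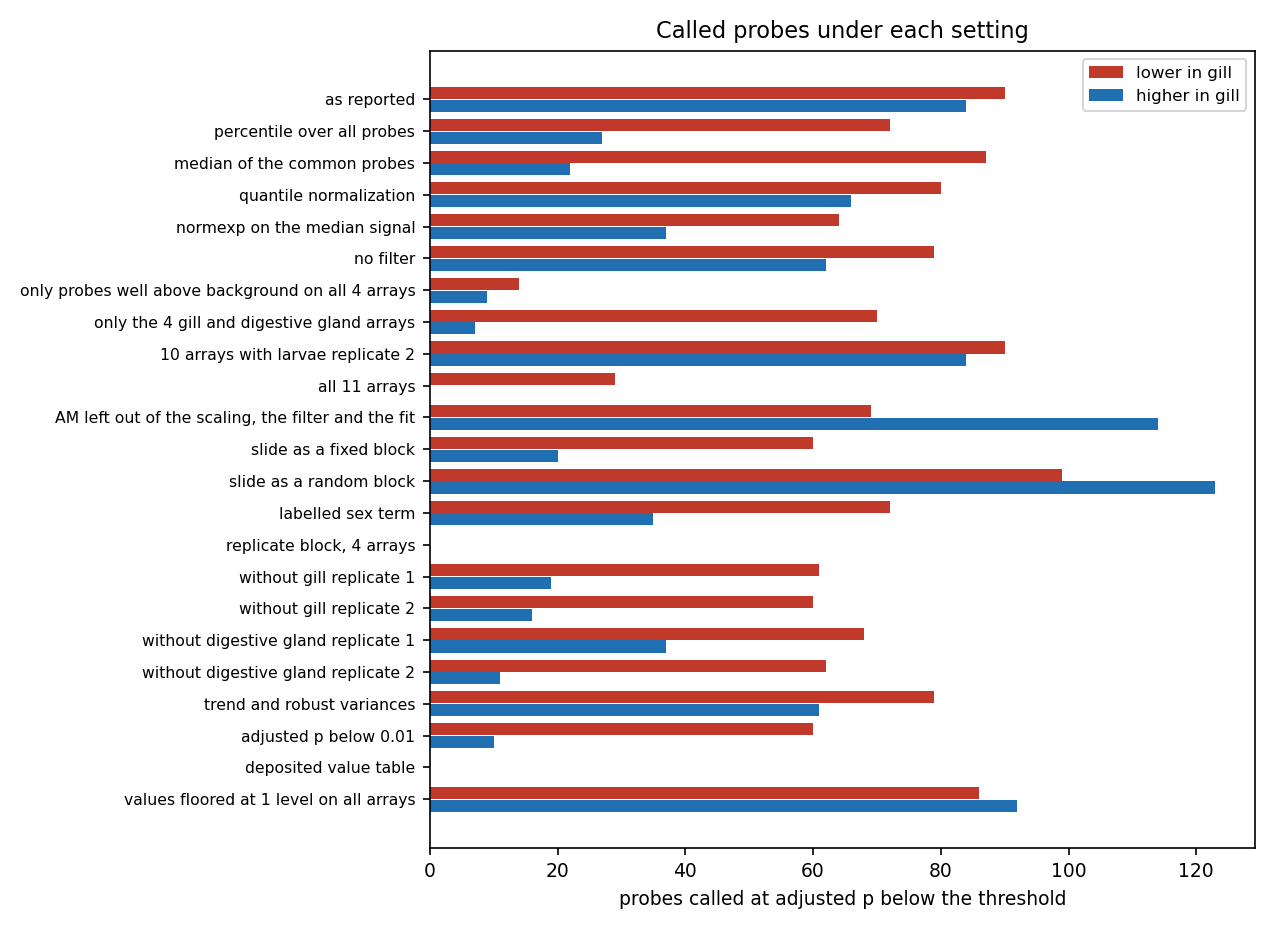
Number of probes called (horizontal axis) lower in gill and higher in gill under the reported setting and each alternative (vertical axis); 1 bar is 1 count. Lower calls lie between 60 and 99 under most settings and higher calls between 7 and 123 where any were made; higher calls fall to 0 with all 11 arrays, and both fall to 0 with the replicate block and with the deposited value table (limma, 87, 659 and 449 probes at an unadjusted p below 0.05).

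Probes detected in 1 tissue alone overlap with the called probes and had to be lower in the other tissue, so their counts are a description and no separate support. Without AM, 94 probes from 71 sequences were detected on both gill arrays and on neither digestive gland array, and their highest mean gill level was -5.25. In the opposite direction, 164 probes from 105 sequences were detected on both digestive gland arrays and on neither gill array. The lowest detectable level was -10.23 on both gill arrays and -11.03 and -11.98 on the digestive gland arrays, so a dim probe could be missed in gill and seen in digestive gland. Of the 164 probes, 85 from 45 sequences had a mean level above the gill limit, up to 1.47, and 22 lay above -3. None of the 94 gill probes lay above -3.

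The brightest probes were largely the same in both tissues. Of the 238 brightest probes tested in each tissue (5%), 187 (78.6%) were among the brightest in both. AM probes are included here, 22 of the brightest in gill and 28 in digestive gland. Of the 289 probes bright in either tissue, 275 differed by less than 1 log2 unit, and 6 were called, all lower in gill. Over all 4760 probes tested, 2793 (58.7%) differed by less than 1 log2 unit and 174 (3.66%) were called.

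By identifier series, the calls were mostly higher in gill among EY and mostly lower among AJ. Of 3411 EY probes tested, 97 (2.84%) were called, 76 higher (2.23%, against 1.76% over all identifiers) and 21 lower. The median difference over all EY probes was 0.52, close to the 0.45 of all probes without AM, and it was 0.22 with the median of the common probes and 0.15 with slide as a fixed block. Of 365 AJ probes, 36 (9.86%) were called, 3 higher and 33 lower, from 12 of 105 sequences, and the median difference over all of them was -0.05, which ran from -0.36 to 0.20 over the alternatives and so had no settled sign. Over all identifiers 3.66% were called. Other prefixes had 5 of 117 probes called, all lower and all from 1 sequence, with a median difference of -0.75. The EY median was 0.69 for the pair of replicate 1 and 0.19 for the pair of replicate 2, which is also the only pair on 1 slide. The median over all probes tested was 0.32 and 0.06 for the same pairs. The series were not tested as lists.

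In the AM series, 863 probes were tested and 36 (4.17%) were called, 5 higher and 31 lower in gill, from 10 of 352 sequences. The median difference was -3.97 (quartiles -5.47 and -0.23), and 545 of the 863 probes had both gill arrays below both digestive gland arrays, with 77 above. Over all identifiers 54.7% of probes did not overlap, in either direction. The filter admitted AM probes detected in digestive gland alone, which favours lower values in gill. Without a filter the AM median was -1.75, and with normexp on the median signal it was -1.76. The size of the AM shift thus depended on the settings, and it also depended on which digestive gland array was used. The median was -1.89 for the pair of replicate 1 and -5.56 for the pair of replicate 2, and leaving out digestive gland 2 gave -1.67 against -6.01 without digestive gland 1. The median AM level was -11.01 and -10.24 in gill 1 and 2, -8.36 in digestive gland 1 and -3.80 in digestive gland 2. Digestive gland 2 exceeded digestive gland 1 by a median of 3.70, and by more than 3 for 441 of the 863 probes. Between slides 1 and 2, male gonad went from -9.19 to -3.42 and the half-body samples from -7.13 to -5.69. On slide 2, female gonad was at -8.07, gill 2 at -10.24 and larvae replicate 2 at -10.75, so arrays of 1 slide had very different AM levels. The part of the slide in the AM difference was not tested.

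**Figure D5:**
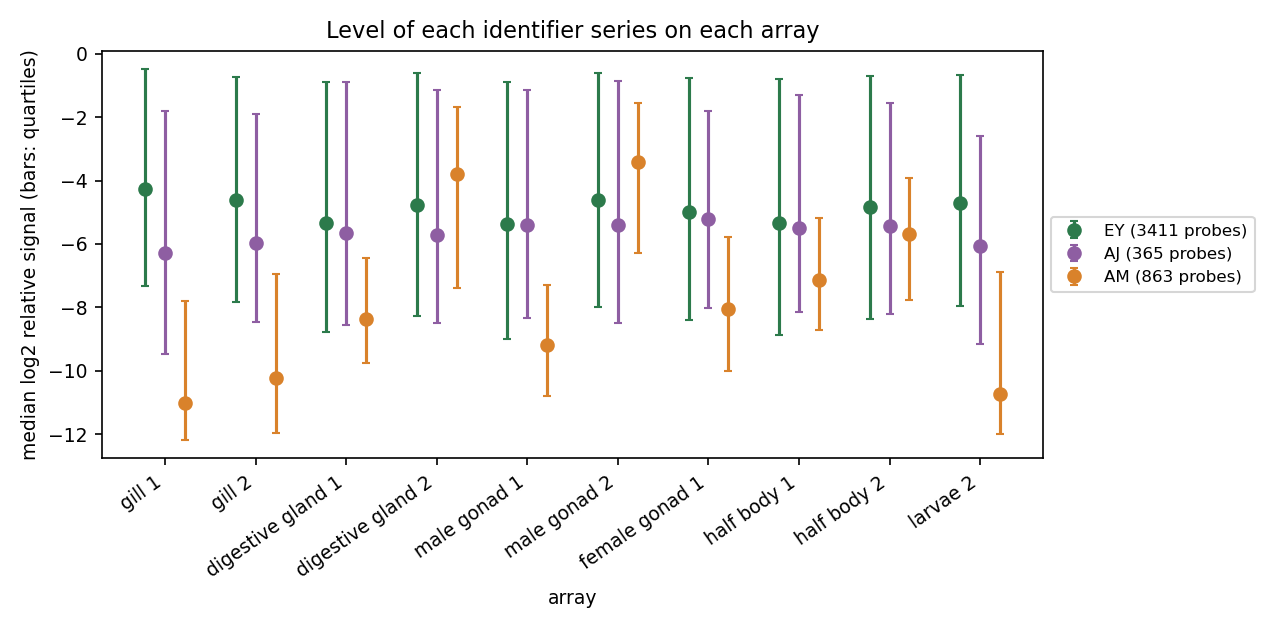
Median level (vertical axis, log2 relative signal, bars from the lower to the upper quartile over probes) of EY, AJ and AM probes tested, on each adult array and 1 larvae array (horizontal axis). EY and AJ medians stay between -6.28 and -4.27 on all arrays, whereas the AM median runs from -11.01 in gill 1 to -3.80 in digestive gland 2 and -3.42 in male gonad 2.

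The gap between the digestive gland arrays enters the standard error, so the test itself favours AM probes in which these arrays gave like values. No called AM probe had a gap of more than 1.37 between the digestive gland arrays, and 33 of the 36 had a gap of less than 1. The median standard error of the difference was 2.13 for AM probes and 0.56 for EY probes. Among the 286 AM probes with a gap of less than 1, from 105 sequences, the median difference was 0.02, with 141 lower and 145 higher in gill. Of these 286 probes, 33 were called. In the AM series, 437 of 1389 probes were detected on both digestive gland arrays and on neither gill array. Of the 437, 287 from 168 sequences had a mean digestive gland level above the gill limit, so the rest could have been missed in gill.

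The AM sequence with the largest difference had levels of -10.30 and -10.07 in gill 1 and 2 and of 2.53 and 1.74 in digestive gland 1 and 2 for its leading probe. All 4 of its probes were called, with differences from -12.32 to -11.95, and 3 of them were detected on both gill arrays. The difference of the leading probe was -12.32 ± 0.58 (SE, adjusted p = 0.000502, limma). In the 4 highest-ranked AM sequences lower in gill, all 16 probes were called, and the leading probes lay between -0.51 and 2.53 in digestive gland and between -2.40 and 1.78 in the gonads and half-body samples. In the opposite direction, the highest-ranked AM sequence had 3 of 4 probes called, with levels of -6.45 and -5.57 in gill and -9.69 and -9.68 in digestive gland for its leading probe. Its difference was 3.67 ± 0.60 (SE, adjusted p = 0.0361, limma), and the call was lost in 17 of 22 alternative fits. The leading probes of the next 3 AM sequences by the same ranking had differences from 3.26 to 3.47 and did not pass the test.

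RXR, a nuclear receptor that pairs with other nuclear receptors to control transcription, had 6 probes, all dim, with a highest level of -8.07 on the 4 arrays. One of the 2 probes detected on 3 of the 4 arrays had levels of -10.26 and -8.07 in gill and -8.97 and -8.59 in digestive gland. The gill arrays lay on either side of the digestive gland arrays. Of the 6 probes, 4 were tested and none was called, with differences from -0.38 to 0.50 and adjusted p from 0.706 to 0.960 (limma). The standard errors ran from 0.47 to 0.74, so differences of that size were not separated from 0.

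Over the 22 probes with 25 spots on an array, the median SD between spots was 0.131 (0.045 to 0.762). One of them had a level of 2.35 in digestive gland 1 and -4.26 in digestive gland 2, and of -3.14 and -5.96 in gill 1 and 2, with spot SDs of at most 0.177. The digestive gland arrays differed by more than 6 log2 units, so the difference of -3.60 did not pass the test (adjusted p = 0.480, limma). This probe was chosen after its values were seen.

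Near the threshold, the 2 called probes with the highest adjusted p had differences of 4.36 ± 0.78 and 1.82 ± 0.33 (SE, adjusted p = 0.0466 and 0.0475, limma). The 2 uncalled probes with the lowest had differences of 2.42 ± 0.44 and 5.97 ± 1.09 (SE, adjusted p = 0.0505 and 0.0518, limma). All 4 were EY probes higher in gill.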

How the data were processed

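RNA of 11 zebra mussel samples was measured on 1-colour Agilent arrays, 15208 spots each beside controls. Per the file headers, the deposited scanner files give intensity per spot from Feature Extraction 10.5.1.1, background-subtracted within each array. The authors' deposited value table holds log2 values; its scaling and centring are not given in the sources used here. Its gill 1 column followed the scan with r = 0.579 (0.986 to 0.99 for the other 3), so it served only as an alternative; the column medians were 4.33, 3.14, 3.26 and 3.14.

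Control and outlier-flagged spots were left out, and spots of a probe were averaged as log2 of the processed signal with no pseudocount. A probe was detected where more than 50% of its spots were well above background. Of the tested probes, 9 lacked a value on 1 of the 4 arrays. Group means of the 9 adult arrays were fitted with limma 3.58.1 (lmFit, eBayes) in R 4.3.3, checked on simulated data, with 4 residual degrees of freedom. An undetected probe has a bound: the bright tissue's mean over the dim tissue's mean, each dim array taking its lowest detected level where the probe lay under it. Named sequences were the 8 largest differences in each direction without AM and 4 with AM, among those with at least 2 tested probes of 1 sign and non-overlapping arrays; identifiers are printed for 2 in each direction. The members, lists and rules were chosen with earlier results of these data known. The alternatives, with normexp (offset 50) run on the median in place of the planned mean signal, changed scaling, background correction, filter, arrays, slide, sex, replicate block, variance model and threshold.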

Additional observations from a re-analysis of the deposited data

Results flagged for a closer look

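In 2 identifier series the replicate pairs moved in opposite directions. The median difference of the AJ probes, gill minus digestive gland, was -0.49 log2 units for the pair of replicate 1 and 0.18 for the pair of replicate 2. The median of the 4 tested RXR probes was -0.55 for the pair of replicate 1 and 0.68 for the pair of replicate 2. The pairs also differ in labelled sex and in slide, and the difference between them was not tested.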

How the results depend on the processing

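Lower calls changed less than higher calls. All 174 called probes kept their direction on slide 2 alone, whose arrays also entered the fit, and in every alternative fit on the scanner signals that tested them; 135 did with the deposited table. Counts are given as all, higher in gill, without AM, and sequences (174, 84, 138 and 92 as reported). The all-probe percentile gave 99, 27, 81 and 44, and the other settings gave 109, 22, 81 and 47 with the median and 101, 37, 76 and 48 with normexp on the median signal. With only the 4 arrays they were 77, 7, 55 and 32, with slide as a fixed block 80, 20, 60 and 43, with a sex term 107, 35, 87 and 54, and at an adjusted p below 0.01 70, 10, 53 and 30. The filter for detection on all 4 arrays, which tested fewer probes, gave 23, 9, 10 and 11, with 14 lower, and all 11 arrays gave 29, 0, 25 and 10, with 29 lower and 87 probes at an unadjusted p below 0.05. Leaving out 1 array gave 73 to 105, 11 to 37, 53 to 86 and 35 to 51. The deposited table gave 0 in limma for each count, lower calls included, with 449 probes at an unadjusted p below 0.05. The slide as a random block gave 222 calls (123 higher, 99 lower; consensus correlation 0.364). A floor on all arrays, chosen after seeing the data, gave 178 calls (92 higher, 86 lower), but not all the same probes. It kept 45 of the 84 higher calls as reported and 81 of the 90 lower calls. The cause of these changes was not tested.

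The replicate number as a block on the 4 arrays gave 0 calls in limma for each count, with 659 probes at an unadjusted p below 0.05. Same-numbered samples did not deviate together (r = -0.00286, and -0.125 without AM), so the numbers were not taken as pairs.

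The median difference over all probes (0.28 as reported) became 0.49 under the all-probe percentile, -0.0241 with the median, 1.25 without a filter, 0.0216 with slide as a fixed block, 0.0597 within slide 2 and -0.36 in the deposited table. The EY median was 1.29 without a filter, 0.15 with slide as a fixed block and 0.0803 in the deposited table. The median of other prefixes was -0.32 with normexp, 1.07 without a filter and -0.29 within slide 2. The AM median was -1.75 without a filter and -1.76 with normexp. It was 0.0347 over probes detected on all 4 arrays, a filter that removes AM probes at background in gill. The last of the 4 AM sequences ranked as higher in gill, uncalled, turned to -2.47 in the deposited table.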
